A study of Mus musculus with 6 samples.

Results

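A set of genes that salivary glands switch on as their epithelium becomes secretory were followed in submandibular glands of mouse embryos, with and without block of non-muscle myosin II. The 10 are Wfdc18, Wfdc2, Agr2, Smgc, Muc19, Bpifa2, Aqp5, Bhlha15, Slc12a2 and Car6. They were chosen by symbol, with no threshold on their values but with earlier results of these data known, and each symbol matched exactly 1 of the 24067 rows of the deposited gene table. The 3 control and the 3 treated libraries come from ICR embryos at embryonic day 13. Treated glands received blebbistatin, an inhibitor of the myosin II motor, and the sources used here give neither its dose nor its duration nor what the controls received. The sample labels name the submandibular gland, whereas the series title names its epithelial buds. Since nothing states that libraries of one group came from separate cultures or litters, p-values here measure only the spread between libraries, which may be technical. Levels are in FPKM, fragments scaled by transcript length and by the library total, so they can be compared between genes as well as between libraries.

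As background, saliva is made in acini, which form from the end buds of the branching gland. Acinar cells secrete proteins, among them mucins and small antimicrobial proteins, and move salt and water with a basolateral chloride importer and apical channels. The submandibular gland of the mouse embryo begins to branch several days before mature acini exist, and some secretory genes are transcribed in the buds ahead of that.

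At this stage the 10 genes spanned the full range of expression, from very abundant to not recorded. Wfdc2 and Slc12a2 were the highest, with means over all 6 libraries of 124 and 120 FPKM, at percentiles 97.8 and 97.6 of the genes in the table. Wfdc18 followed at 26.2 and Agr2 at 5.15 FPKM. Bhlha15 (1.37), Smgc (1.22) and Aqp5 (0.798 FPKM) lay near 1 FPKM. Among neighbours in this order, Wfdc2 and Slc12a2 overlapped in level across the libraries, and so did Bhlha15, Smgc and Aqp5, while every library of Wfdc18 lay above every library of Agr2 and every library of Agr2 above all of Bhlha15.

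Bpifa2, Car6 and Muc19 were still near 0, defined as below 1 FPKM in all 6 libraries. Bpifa2, a secreted BPI-fold protein also called parotid secretory protein, was listed at 0 in every library. Car6, the secreted carbonic anhydrase of saliva, did not exceed 0.114 FPKM, and the highest library held about 4 fragments of it. Muc19, a gel-forming salivary mucin, ranged from 0.185 to 0.992 FPKM. Its annotated transcript is 9104 nt long, so that even these values rest on about 48 to 267 fragments. Aqp5 was below 1 FPKM in 4 of the 6 libraries.

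**Figure D1:**
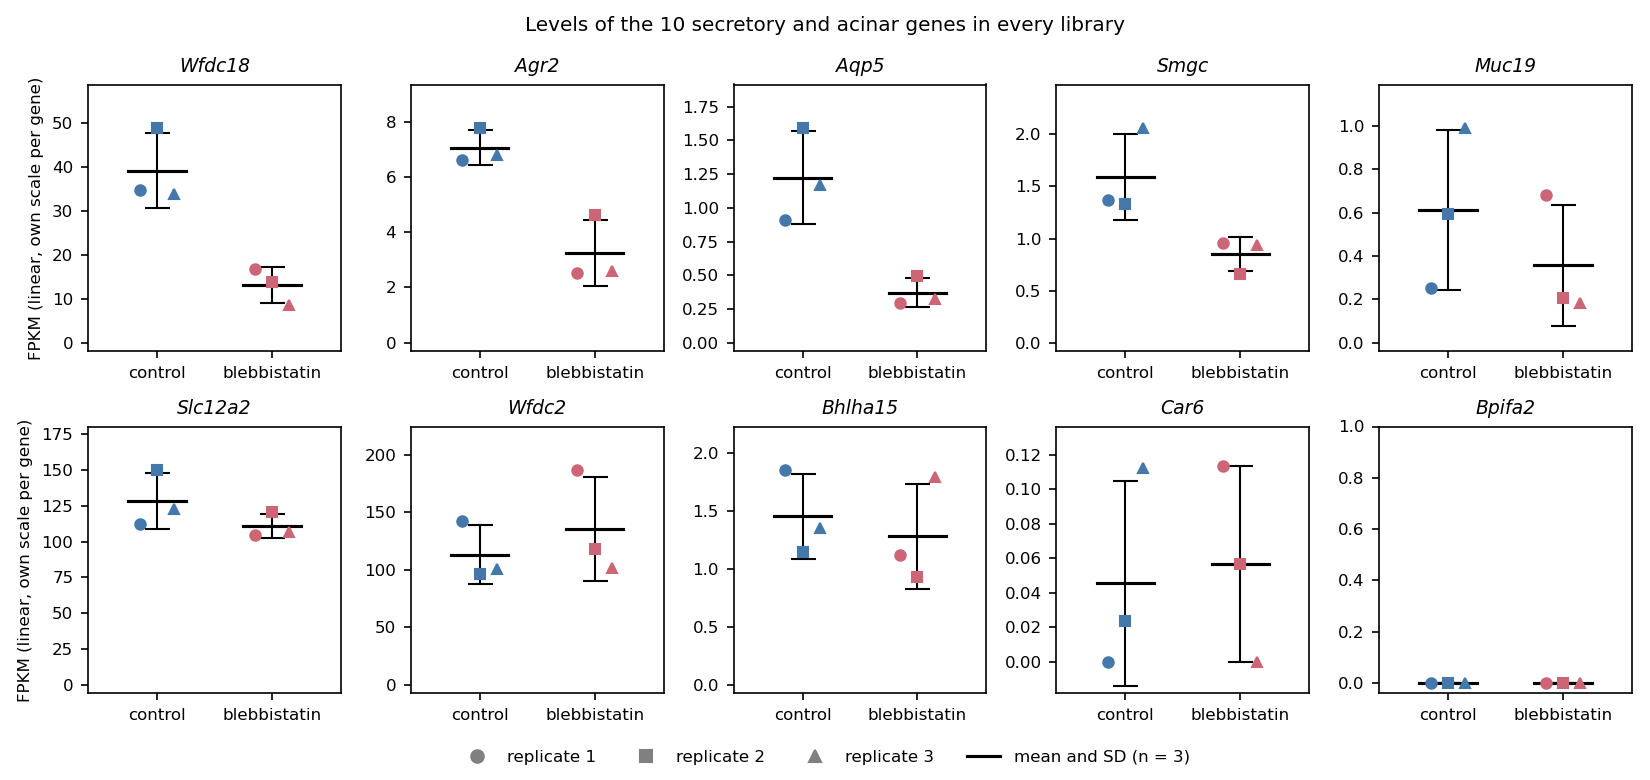
FPKM (vertical axis, linear from 0, its own scale for each gene) of the 10 genes in the 3 control and 3 blebbistatin libraries, with a marker shape for each replicate number and the mean ± SD in black. Wfdc18, Agr2, Aqp5 and Smgc show every treated library below every control, Bpifa2 lies at 0 throughout, and for the other 5 genes the groups overlap.

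For Wfdc18, Agr2, Smgc and the water channel gene Aqp5 every treated library lay below every control, and for no member did every treated library lie above. Of these 4, Wfdc18, Agr2 and Smgc were among the 6 members with a mean of at least 1 FPKM that entered the test across all genes. Smgc passed that filter only through its control level, so the counts and the median over tested members are descriptions only. Non-overlap with lower treated values occurred in 6.8% of the 11540 genes tested, as against 3 of 6 tested members, and non-overlap with higher treated values in 7.48% of genes and 0 members. No member passed an adjusted p of 0.05 (limma, Benjamini-Hochberg adjustment over all genes), where 0.078% of all genes did. At an unadjusted p under 0.05 there were 3 members, all lower, where 4.9% of all genes were lower and 4.46% higher at that level. The median log2 fold change was -0.34 over the 6 tested members and 0.01 over all genes tested.

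Wfdc18 encodes a small secreted protein with a WAP domain, a fold held by disulfide bonds that is common among protease inhibitors. It was at 34.9, 49.1 and 33.8 FPKM in control replicates 1 to 3, and at 16.8, 13.9 and 8.63 FPKM in blebbistatin replicates 1 to 3. All 3 treated libraries were well below the lowest control. These values correspond to about 378, 603 and 357 fragments in controls and 179, 143 and 90 in treated libraries. Group means were 39.2 ± 8.51 and 13.1 ± 4.15 FPKM (SD, n = 3), a ratio of 2.99 between control and treated. The log2 fold change, computed from log2(FPKM + 1) as treated minus control, was -1.54 ± 0.23 (SE), and it ranked 21st by p among all tested genes with an adjusted p of 0.0727 (limma). It therefore missed the threshold, and it passed at an adjusted p of 0.0461 when genes under a mean of 5 FPKM were left out and at 0.0437 with array weights, at log2 fold changes of -1.54 and -1.59. With the replicate number as a block it also passed, at an adjusted p of 0.0338 (limma), though the labels give that number no meaning. The remaining settings did not pass, with an adjusted p of 0.204 with no filter on low values and of 0.067 to 0.230 without single libraries (limma).

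Agr2 encodes a member of the protein disulfide isomerase family that works in the endoplasmic reticulum of mucus-secreting cells. Its level was 6.60, 7.78 and 6.80 FPKM in the controls and 2.53, 4.61 and 2.59 FPKM in treated libraries. Controls lay close together, and blebbistatin replicate 2 was the treated library nearest to them. Means were 7.06 ± 0.63 and 3.24 ± 1.19 FPKM (SD, n = 3), and the log2 fold change was -0.96 ± 0.18 (SE) at an adjusted p of 0.0929 (limma). Without blebbistatin replicate 2 the log2 fold change was -1.18 and the adjusted p 0.0388 (limma), past the threshold. Leaving out the treated library nearest to the controls favours a larger difference. Leaving out any other single library gave adjusted p-values from 0.195 to 0.283 (limma).

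Aqp5 encodes the water channel of the apical membrane of acinar cells. It was at 0.907, 1.59 and 1.17 FPKM in controls and at 0.296, 0.492 and 0.327 FPKM in treated libraries. With about 37, 77 and 48 fragments in controls and 12, 20 and 13 in treated libraries, it is the thinnest of the 4 in reads. The ratio of the means, 1.22 ± 0.35 over 0.372 ± 0.11 FPKM (SD, n = 3), was 3.29, the largest among the 10 genes. Its mean over 6 libraries was under 1 FPKM, so the main test left it out. A two-sided exact permutation test over libraries gave p = 0.1, the smallest that 3 against 3 can give, and with no filter on low values limma gave a difference of -0.69 ± 0.12 (SE) on the log2 scale at an adjusted p of 0.208. That difference was -1.48 with a pseudocount of 0.1 in place of 1 FPKM, since the added constant weighs heavily at this level.

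Smgc encodes a mucin-like secretory protein of the perinatal submandibular gland, and it shares its transcription start with Muc19. Controls were at 1.37, 1.34 and 2.06 FPKM and treated libraries at 0.957, 0.659 and 0.933 FPKM. Control replicate 3 stood above the other 2 controls, and the 3 treated libraries were all under 1 FPKM. Means were 1.59 ± 0.41 and 0.850 ± 0.17 FPKM (SD, n = 3), and the log2 fold change was -0.48 ± 0.15 (SE) at an adjusted p of 0.281 (limma). With a pseudocount of 0.1 FPKM the log2 fold change was -0.82.

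The 250 bases before the annotated starts of these 4 genes are shown because they are the members that lay lower in every treated library, and Wfdc2 is added as the family relative of Wfdc18 that did not. Sequences are from RefSeq on GRCm38.p6, the mm10 build, read 5′ to 3′ on the gene's strand, and each start equals that in the deposited annotation. Capitals mark the TATA box (TATAAA) and the E-box (CANNTG), the site bound by basic helix-loop-helix factors such as the Bhlha15 product. A SOX motif (ACAAAG), the ETS core (GGAA) and an AP-1 motif (TGANTCA) were searched too, each motif on both strands, and the matches found do not overlap one another.
Wfdc18, chr11:83708754-83709003, plus strand: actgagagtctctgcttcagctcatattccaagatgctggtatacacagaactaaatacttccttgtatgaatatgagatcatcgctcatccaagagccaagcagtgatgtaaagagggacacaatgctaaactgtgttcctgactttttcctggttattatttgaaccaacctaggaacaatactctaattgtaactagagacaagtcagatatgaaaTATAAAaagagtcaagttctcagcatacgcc
Agr2, chr12:35992675-35992924, plus strand: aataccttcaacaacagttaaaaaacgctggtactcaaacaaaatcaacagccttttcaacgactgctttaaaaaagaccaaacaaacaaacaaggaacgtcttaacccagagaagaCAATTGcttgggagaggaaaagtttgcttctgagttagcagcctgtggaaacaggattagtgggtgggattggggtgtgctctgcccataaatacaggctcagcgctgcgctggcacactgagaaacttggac
Aqp5, chr15:99590778-99591027, plus strand: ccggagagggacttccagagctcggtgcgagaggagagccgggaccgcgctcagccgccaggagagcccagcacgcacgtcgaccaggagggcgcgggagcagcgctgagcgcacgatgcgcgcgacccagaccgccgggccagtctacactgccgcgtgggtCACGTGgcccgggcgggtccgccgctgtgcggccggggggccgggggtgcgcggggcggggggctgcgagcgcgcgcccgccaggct
Smgc, chr15:91838078-91838327, plus strand: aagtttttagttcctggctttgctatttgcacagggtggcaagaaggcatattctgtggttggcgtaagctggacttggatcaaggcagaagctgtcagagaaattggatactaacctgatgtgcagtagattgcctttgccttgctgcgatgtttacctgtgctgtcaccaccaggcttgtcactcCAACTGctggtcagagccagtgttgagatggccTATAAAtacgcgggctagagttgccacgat
Wfdc2, chr2:164562466-164562715, plus strand: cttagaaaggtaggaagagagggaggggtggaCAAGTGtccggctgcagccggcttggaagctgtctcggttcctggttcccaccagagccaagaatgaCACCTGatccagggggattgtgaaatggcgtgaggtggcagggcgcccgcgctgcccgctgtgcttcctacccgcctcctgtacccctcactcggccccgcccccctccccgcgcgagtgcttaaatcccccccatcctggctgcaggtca

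The TATA box was found before Wfdc18, its first base at position -31 from the start, and before Smgc at position -30, and in none of the other 3, where 12.4% of all 32851 RefSeq windows of this length hold it. An E-box was present before Agr2 at position -133, Aqp5 at -87 and Smgc at -63, and before Wfdc2 at -218 and -151, but not before Wfdc18, and 66.2% of all windows hold one. The ETS core was in all 5 windows, with 5 matches before Wfdc18, 3 before Agr2, 1 each before Aqp5 and Smgc and 5 before Wfdc2, and 93.4% of all windows hold it. No match to ACAAAG or to TGANTCA lay in any of the 5 windows, as against 16.5% and 6.75% of all windows. Base composition ran from 38.4% G and C before Wfdc18 to 78.4% before Aqp5, with a median of 52.4% over all windows. A match here is a description of letters, not a site.

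Wfdc2, which encodes another secreted protein with WAP domains and is abundant in many glandular epithelia, did not follow Wfdc18. It was at 142, 96.6 and 101 FPKM in controls and at 187, 118 and 101 FPKM in treated libraries. Replicate 1 was the highest library of each group, and the groups overlapped. Means were 113 ± 25.3 and 136 ± 45.6 FPKM (SD, n = 3), with a log2 fold change of 0.23 and a 95% interval from -0.32 to 0.77 (adjusted p = 0.952, limma). Without blebbistatin replicate 1 its sign turned, to -0.030. The log2 ratio of Wfdc18 to Wfdc2 within a library averaged -1.51 in controls and -3.27 in treated libraries, without overlap (two-sided exact permutation p = 0.1, the smallest possible).

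The rest of the WAP-domain family was close to silent. Of 21 family members in the table, 18 were below 1 FPKM in all libraries, 10 of these were listed at 0 throughout, and only Wfdc18 and Wfdc2 had a mean of at least 1 FPKM. Slpi, the secretory leukocyte protease inhibitor, is named here because of its values. Controls had 0.241, 0.0827 and 0.0486 FPKM and treated libraries 3.32, 1.47 and 0.350 FPKM, so that the groups did not overlap and its direction was opposite to that of Wfdc18. Its treated libraries were spread widely, and its mean was too low for the test.

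Agr3, the nearest relative of Agr2, was likewise looked up after the values of Agr2 were known. It stood at 10.3, 6.46 and 6.89 FPKM in controls and 7.72, 6.96 and 8.67 FPKM in treated libraries, which gave 0.0040 ± 0.16 (SE) for the log2 fold change at an adjusted p of 0.999 (limma). The within-library log2 ratio of Agr2 to Agr3 had means of -0.12 in controls and -1.08 in treated libraries, but the groups overlapped (two-sided exact permutation p = 0.2), so that a difference between the pair was not established. Across the protein disulfide isomerase family 17 of 20 members were tested, 7 had lower and 10 higher treated means, 0 passed (limma) and 1, Agr2, had an unadjusted p under 0.05. Over all genes tested, 4.9% were lower and 4.46% higher at that level. The median log2 fold change of the family was 0.02, against 0.01 for all genes. After Agr2 the smallest p-values belonged to Txndc12 (40.5 ± 2.57 and 45.1 ± 1.09 FPKM, SD, n = 3), Tmx4 (5.14 ± 0.44 and 5.98 ± 0.71) and Pdia5 (7.71 ± 0.72 and 6.86 ± 0.14), none with an adjusted p under 0.69.

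**Figure D2:**
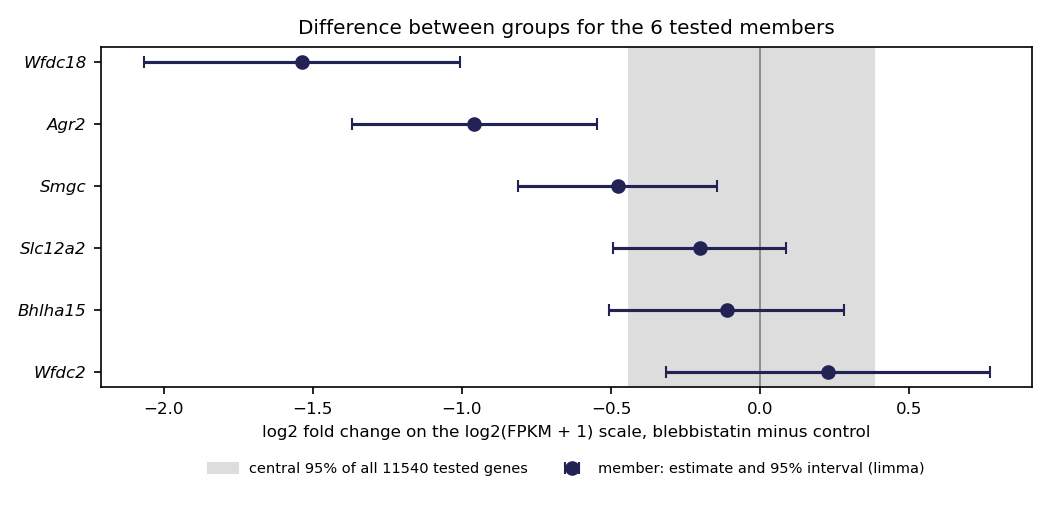
Log2 fold change on the log2(FPKM + 1) scale, treated minus control, with its 95% interval from limma, for the 6 members with a mean of at least 1 FPKM. The grey band spans the central 95% of the 11540 genes tested, from -0.44 to 0.38. Wfdc18 at -1.54 and Agr2 at -0.96 lie to its left, Smgc at -0.48 just beyond its edge, and the intervals of Slc12a2, Bhlha15 and Wfdc2 include 0.

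Muc19 overlaps Smgc at its first exon. On mm10 the Smgc transcript spans chromosome 15 from 91838328 to 91861435 in 18 exons, and the Muc19 transcript spans 91838326 to 91934555 in 44 exons on the same strand. They share the first exon over 93 bases and no other, so only fragments from that stretch may be assigned to either. Muc19 was at 0.253, 0.594 and 0.992 FPKM in controls and at 0.680, 0.205 and 0.185 FPKM in treated libraries. The groups overlapped, with control replicate 1 low and blebbistatin replicate 1 high (two-sided exact permutation p = 0.4). Of the 13 mucin genes in the table, which include Smgc, 12 were below 1 FPKM in all libraries. Muc1 and Muc15 stayed between 0.183 and 0.556 FPKM, and Muc5b, Muc6, Muc2 and Prol1 below 0.052 FPKM.

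For Slc12a2, Bhlha15 and Car6 the groups overlapped. Slc12a2 encodes NKCC1, the basolateral cotransporter that loads acinar cells with chloride. It was at 112, 150 and 122 FPKM in controls and at 105, 121 and 107 FPKM in treated libraries. Control replicate 2 was the highest of all, and 1 treated library lay above control replicate 1. With means of 128 ± 19.7 and 111 ± 8.54 FPKM (SD, n = 3) the log2 fold change was -0.20, with a 95% interval from -0.49 to 0.087 (adjusted p = 0.776, limma), and it was -0.084 without control replicate 2.

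Bhlha15 encodes MIST1, a transcription factor of exocrine cells that scales up the secretory apparatus. Its levels were 1.86, 1.15 and 1.35 FPKM in controls and 1.12, 0.932 and 1.79 FPKM in treated libraries. Blebbistatin replicate 3 was nearly as high as control replicate 1, and the groups overlapped. The log2 fold change of -0.11 had a 95% interval from -0.51 to 0.28 (adjusted p = 0.986, limma), and it was 0.0031 without control replicate 1. Car6 was at 0, 0.0239 and 0.113 FPKM in controls and at 0.114, 0.0568 and 0 FPKM in treated libraries, about 0 to 4 fragments each, too few to compare.

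On mm10, Wfdc18 lies on the plus strand of chromosome 11 from 83709004 to 83711360 (3 exons), Agr2 on chromosome 12 from 35992925 to 36004081 (8 exons) and Aqp5 on chromosome 15 from 99591028 to 99594829 (4 exons). Wfdc2 lies on chromosome 2 from 164562716 to 164568506, Bhlha15 on chromosome 5 from 144190286 to 144194441, and Bpifa2 on chromosome 2 from 154008276 to 154016073, all on the plus strand. Car6 lies on the minus strand of chromosome 4 from 150187016 to 150201135. Each of the 10 genes has 1 annotated transcript in the deposited tables, and apart from Smgc and Muc19 no exon of a member overlaps that of another gene there.

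Other genes of acinar fluid secretion, from a list of channels, transporters and the receptors that drive them, mostly had lower means in treated glands. Of 27 listed genes 18 were tested, 16 of these were lower and 2 higher, 0 passed (limma), and 6 were lower and 0 higher at an unadjusted p under 0.05. Over all genes tested, 4.9% were lower and 4.46% higher at that level. The median log2 fold change of the list was -0.20, against 0.01 for all genes, of which 44.8% were lower. The list contains Slc12a2, and it is a description with no test of its own. Kcnn4, a calcium-activated potassium channel, was at 29.1, 41.6 and 37.4 FPKM in controls and at 8.16, 19.8 and 18.6 FPKM in treated libraries. The log2 fold change was -1.24 ± 0.30 (SE) at an adjusted p of 0.170 (limma), and it was -0.86 without blebbistatin replicate 1.

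Ano1, the apical calcium-activated chloride channel, followed with 9.31 ± 1.76 and 5.58 ± 1.22 FPKM (SD, n = 3, log2 fold change -0.65, adjusted p = 0.196, limma). The muscarinic receptor gene Chrm1 was at 7.68 ± 0.68 and 5.46 ± 0.74 FPKM, also without overlap between groups, and the purinergic receptor gene P2ry2 at 2.22 ± 0.32 and 1.44 ± 0.40 FPKM, with overlap. The 2 tested genes with higher means were Cftr (log2 fold change 0.40), a chloride channel, and Atp1b3 (0.13), a subunit of the sodium pump. Both were also without overlap between groups. Of the 18 tested genes, 7 were lower and 2 higher without overlap, as against 6.8% and 7.48% of all genes tested. Cftr was at 0.741, 0.793 and 0.848 FPKM in controls and at 2.48, 0.906 and 0.991 FPKM in treated libraries (adjusted p = 0.703, limma). It passed the filter only through its treated level, where blebbistatin replicate 1 stood far above the rest. Chrm3, the other muscarinic receptor of salivary glands, stood at -0.21 ± 0.16 (SE) on the log2 scale, with an adjusted p of 0.869 (limma).

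Saliva proteins of older glands were mostly near 0 in both groups. Of 23 such genes in the table, 17 were below 1 FPKM in all libraries, including Pip, Amy1, Prb1, Lyz1, Klk1 and Egf, and Prh1, Spt1, Klk1b22 and Bpifa2 were listed at 0. Only 4 were tested, all with lower treated means, and none passed (limma), while 2 had an unadjusted p under 0.05. These 2 were Smgc, given above, and Lpo, the lactoperoxidase of saliva. Both reached a mean of 1 FPKM only through the controls, a filter that favours lower treated values, so that this count supports no direction. Lpo was at 1.53, 1.54 and 1.66 FPKM in controls and at 0.588, 0.940 and 1.13 FPKM in treated libraries, without overlap (log2 fold change -0.46 ± 0.13, SE, adjusted p = 0.261, limma).

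Dcpp1 and Dcpp2, secreted proteins of the demilune and parotid type, were the most abundant of these. Dcpp1 was at 14.9, 15.8 and 20.9 FPKM in controls and at 5.02, 12.3 and 15.1 FPKM in treated libraries, and Dcpp2 at 13.8, 13.5 and 20.6 FPKM and at 2.86, 12.5 and 14.5 FPKM. Blebbistatin replicate 1 was low for both, blebbistatin replicate 3 lay within the controls, and the 2 genes are close copies whose fragments may be split between them. Blebbistatin replicate 1 was also the lowest library for Kcnn4, Agr2 and Aqp5, but the highest of the treated libraries for Wfdc18, Wfdc2 and Smgc.

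**Figure D3:**
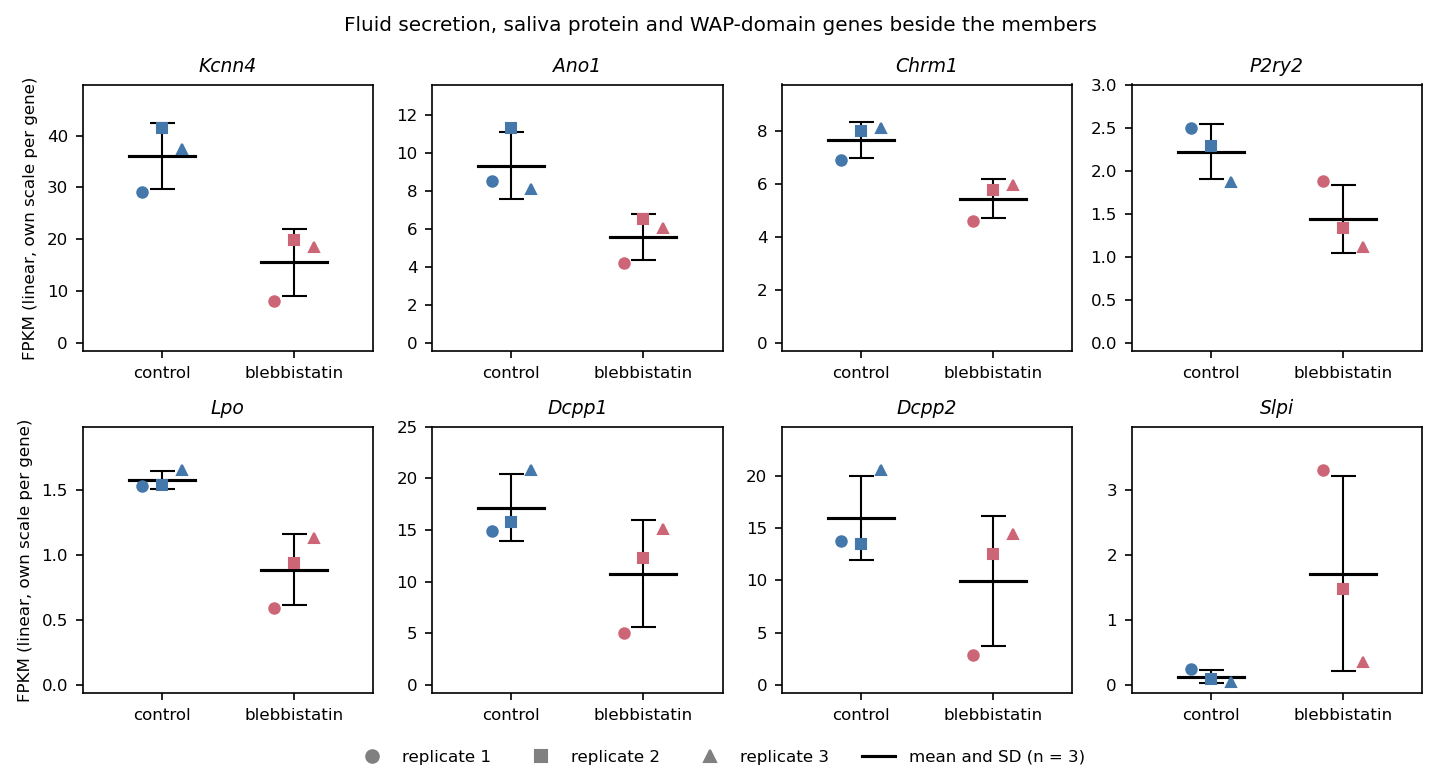
FPKM (vertical axis, linear from 0, its own scale for each gene) of 8 genes from the fluid secretion, saliva protein and WAP-domain lists, with markers and bars as in the plot of the 10 genes. Kcnn4, Ano1, Chrm1 and Lpo show no overlap between groups with lower treated values, Slpi the opposite, and blebbistatin replicate 1 is the low library for Dcpp1 and Dcpp2.

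Genes of the general secretory apparatus had a median close to that of all genes. Of 47 genes around Bhlha15 and XBP1, which include the endoplasmic reticulum chaperones and the translocon, 39 were tested. Of these, 24 were lower and 15 higher, and 0 passed (limma). An unadjusted p under 0.05 was found for 2, both lower, where 4.9% of all genes were lower at that level. The median log2 fold change was -0.01. Creb3l1, a membrane-bound transcription factor of secretory cells, was at 2.78 ± 0.65 and 1.58 ± 0.66 FPKM (SD, n = 3), and Ccpg1, an autophagy receptor of the endoplasmic reticulum, at 13.1 ± 0.43 and 11.5 ± 0.15 FPKM, with adjusted p-values of 0.381 and 0.507 (limma). Herpud1 (26.4 ± 1.36 and 22.0 ± 3.67 FPKM) and Rab27a (12.9 ± 0.96 and 11.4 ± 1.19) came next. Xbp1 itself lay between 26.0 and 32.9 FPKM in controls and between 24.9 and 30.1 in treated libraries.

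Among 13 tested genes of secretory granules and exocytosis 8 were lower and 5 higher, with a median of -0.03 and 0 past the threshold (limma). Cpe, a carboxypeptidase that processes prohormones in granules, was the exception in size, at 13.8 ± 0.79 and 34.8 ± 9.08 FPKM (SD, n = 3, log2 fold change 1.24, adjusted p = 0.0727, limma). Without blebbistatin replicate 3, the treated library nearest to the controls, it passed with 1.46 and an adjusted p of 0.00996 (limma). Cpe also passed at 0.0461 when genes under a mean of 5 FPKM were left out, at 0.0441 with array weights and at 0.0338 with the replicate block (limma). With no filter on low values its adjusted p was 0.186, and without control replicate 1 or 2 it was 0.161 or 0.230 (limma). Sytl1 (6.36 ± 1.57 and 4.94 ± 1.36 FPKM) and Rab3a (3.90 ± 0.18 and 3.48 ± 0.34 FPKM), both of vesicle docking, overlapped between groups. Carbonic anhydrases other than Car6 were led by Car12 at 76.7 ± 6.98 and 71.6 ± 7.97 FPKM, and Car13 was at 4.68 ± 0.73 and 6.78 ± 0.52 FPKM, without overlap and with higher treated values (adjusted p = 0.190, limma), while Car8 overlapped (log2 fold change -0.061, adjusted p = 0.997, limma). Of 16 carbonic anhydrases, Car6 included, 12 were below 1 FPKM throughout. Within the BPI-fold family 14 of 15 genes were below 1 FPKM throughout, and Lbp was the 1 expressed gene, at 53.4 ± 11.5 and 45.6 ± 9.12 FPKM.

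**Figure D4:**
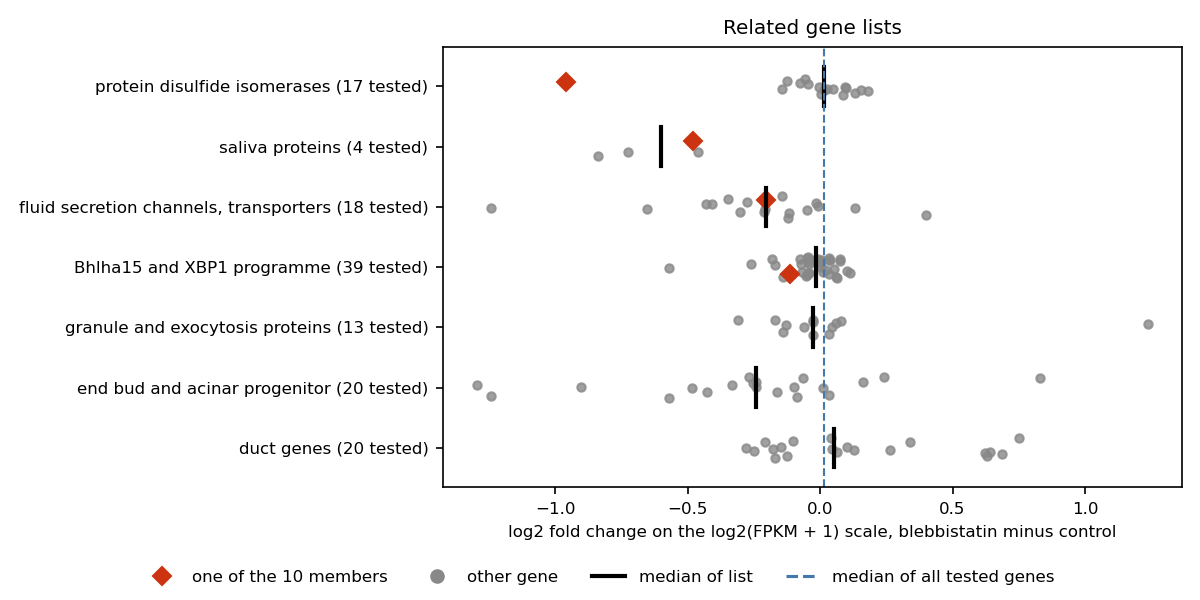
Log2 fold change on the log2(FPKM + 1) scale, treated minus control (horizontal axis), of each tested gene in 7 related lists, with members as red diamonds, list medians as black bars and the median of all tested genes as a dashed line. Agr2 stands far left of the other disulfide isomerases, the fluid secretion list has a median of -0.20, and the Bhlha15 and XBP1 list gathers near 0 with a median of -0.01.

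Of 20 tested genes of end buds and acinar progenitors 15 were lower and 5 higher, with a median of -0.24 and 0 past the threshold (limma), and 7 were lower and 2 higher at an unadjusted p under 0.05. Over all genes tested, 4.9% were lower and 4.46% higher at that level. Kcnn4 is counted here as well as in the fluid secretion list, so the 2 lists are not separate. Gfra1, a receptor for glial cell line-derived neurotrophic factor, was at 2.97 ± 0.63 and 1.11 ± 0.30 FPKM (SD, n = 3). Cldn10, a claudin of end buds, was at 228 ± 19.2 and 163 ± 6.92 FPKM, and Sox10, a transcription factor of bud progenitors, at 212 ± 5.42 and 143 ± 19.9 FPKM, both without overlap. Mycn, a growth-promoting transcription factor, lay the other way, at 6.18 ± 1.25 and 11.8 ± 2.71 FPKM (log2 fold change 0.83, adjusted p = 0.139, limma), also without overlap, and Fgfr2 was the other gene with a higher treated mean and an unadjusted p under 0.05. Without blebbistatin replicate 1 the median of this list was -0.14. Of 20 tested duct genes 8 were lower and 12 higher, with a median of 0.05. At an unadjusted p under 0.05 (limma) 0 were lower and 5 higher, beside the same 4.9% and 4.46% of all genes. Cldn8 was at 21.3 ± 0.21 and 36.8 ± 5.18 FPKM, Scnn1g, an epithelial sodium channel subunit, at 2.21 ± 0.39 and 3.96 ± 0.47, and Egfr at 4.63 ± 0.61 and 7.87 ± 1.96, each without overlap, while Wnt7b at 1.62 ± 0.64 and 3.09 ± 1.27 FPKM overlapped. In bulk RNA, fewer cells of a kind and less RNA per cell cannot be told apart.

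Markers of cell types other than bud epithelium were low except in a few lists. The 12 epithelial markers were all tested and summed to between 1591 and 1990 FPKM in controls and between 1507 and 1944 in treated libraries, so that epithelial RNA was plentiful in both groups. The 10 endothelial markers summed to at most 15.2 FPKM and the 9 leukocyte markers in the table to at most 5.44, with Ptprc below 0.047. The 11 myoepithelial markers, largely Acta2, Krt14 and Nrtn, summed to between 461 and 519 FPKM in controls and between 609 and 675 in treated libraries. Of 9 tested genes 6 were higher. The 3 lower were Actg2, Mylk and Myh11, and the groups overlapped for all 9. At an unadjusted p under 0.05 (limma) 2 were higher and 0 lower, where 4.46% of all genes were higher and 4.9% lower. Krt14 is also among the epithelial markers, so the sum is not particular to myoepithelial cells. The 12 Schwann cell and glia markers summed to between 316 and 355 FPKM in controls and between 199 and 253 in treated libraries, of which Sox10 and Erbb3, both also made by gland epithelium, held the most. Ngfr lay between 11.7 and 25.1 FPKM, Mbp between 7.29 and 10.1 and Egr2 between 3.59 and 12.6, while S100b and Gfap did not exceed 0.998 FPKM. Of 5 tested genes of this list 4 were lower and 1 higher, and 3 of the lower had an unadjusted p under 0.05 (limma), where 4.9% of all genes were lower at that level. S100b, below the filter, was at 0.736 ± 0.24 and 0.252 ± 0.023 FPKM (SD, n = 3), and Egr2 at 9.18 ± 3.31 and 5.16 ± 1.97 FPKM. The 13 mesenchyme markers summed to between 298 and 370 FPKM in controls and between 350 and 394 in treated libraries, mostly Vim, with Col1a1 at 0.588 to 3.06. The sum thus follows Vim, and of 6 tested genes 3 were lower and 3 higher, with a median log2 fold change of -0.081. Col3a1 was at 7.26 FPKM in control replicate 1 and between 0.806 and 2.18 in all other libraries. The part of these shifts in the levels of the 10 genes was not tested.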

How the data were processed

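RNA from 3 control and 3 blebbistatin submandibular gland samples was sequenced as TruSeq libraries, per the labels' protocols. The authors deposited FPKM per gene and per transcript, with the RefSeq annotation used, per the file headers. The submitters' processing notes name mm10, Cufflinks 2.2.1, Bowtie2 2.2.3 and TopHat2 2.0.13. Columns abbreviated BB were read as blebbistatin, and the column without a number as replicate 1.

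FPKM is no count, so genes with a mean of at least 1 FPKM over 6 libraries (11540) entered limma 3.58.1 on the log2(FPKM + 1) scale (R 4.3.3, mean-variance trend, Benjamini-Hochberg, threshold 0.05), which was checked on simulated data. Aqp5, Muc19, Car6 and within-library ratios of related genes got a two-sided exact permutation test. Depth was estimated from the steps of low FPKM values of single-transcript genes of at least 800 nt. Between 89.0% and 92.0% of low values were within 0.1 of a whole fragment, giving 29100000 to 35700000 fragments per library (control replicate 2 the deepest). Fragments per gene are estimates and took no part in tests.

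Members and lists were chosen with earlier results of these data known. Named genes are the 10 members and, per related list, those past the threshold, filled to 4 by smallest p. Slpi, Agr3, Cftr, Atp1b3, Chrm3, Xbp1, Fgfr2 and single marker genes were named outside that rule, after their values were seen. Alternatives were another pseudocount, filters, scalings, weights, a replicate block and leaving out each library. Genomic position of Slc12a2 is not reported here.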

Additional observations from a re-analysis of the deposited data

How the results depend on the processing

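Among the 6 tested members, Wfdc18, Agr2, Smgc and Slc12a2 kept a negative log2 fold change under all alternatives that could be run for them, between -1.73 and -1.29 for Wfdc18, -1.18 and -0.84 for Agr2, -0.82 and -0.35 for Smgc, and -0.29 and -0.084 for Slc12a2. Leaving out 1 library at a time gave -0.030 to 0.41 for Wfdc2, -0.27 to 0.0031 for Bhlha15 and -0.17 to 0.11 for Car8, whose value was 0.033 with array weights. The count of members past the threshold, 0 in the main test, was 1 with a minimum of 5 FPKM, 1 with array weights (Wfdc18 in both), 2 with the replicate block (Wfdc18 and Agr2) and 0 to 1 without single libraries. Across all alternatives the highest adjusted p (limma) was 0.230 for Wfdc18 and 0.283 for Agr2. The related and marker lists hold members too. For their genes the count of 0 became 3 at a mean of 5 FPKM or more, 1 after quantile normalization and 4 with array weights. It was 13 with the replicate block (Kcnn4, Cpe, Gfra1, Mycn, Cldn8, Scnn1g and Wnt7b among them) and 0 to 1 without single libraries. Wfdc18 is among the 3 and the 4, Wfdc18 and Agr2 are among the 13, and the 1 without blebbistatin replicate 2 is Agr2. Over all genes the count of 9 became 1 with no filter, 27 at a mean of 5 FPKM or more, 14 after quantile normalization, 2 after median-of-ratios rescaling, 57 with array weights, 144 with the replicate block and 1 to 13 without single libraries (leaving out control replicate 1 gave 1, control replicate 2 gave 2, blebbistatin replicate 1 gave 2, and blebbistatin replicate 2 gave 4). Apart from the settings that remove genes or libraries by construction, the cause was not tested. The labels give the replicate numbers no meaning beyond a shared number, and whether they mark a shared batch was not tested. Deviations of same-numbered libraries correlated at 0.18, 0.094 and 0.25 across genes, and each library correlated best with its own number. Depth limits Aqp5 (12 to 77 fragments per library) and Car6 (0 to 4).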
